A study of Mus musculus with 10 samples.

Results

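Astrocytes carrying the EGFRvIII oncogene were compared before and after forced expression of the zinc finger gene Zfp423, in 3 batches of cells. AstroEGFR cells were astrocytes from the cerebral cortex of C57BL/6 mice at postnatal day 5, lacking p16 and p19 (the products of the Ink4a/Arf locus, Cdkn2a), kept under passage 10 and transduced with a retrovirus for human EGFRvIII, a truncated and constantly active form of the epidermal growth factor receptor. AstroEGFR Zfp423 cells were the same batches with a second viral vector for Zfp423, so the deletion and the oncogene were shared by both groups. The 6 libraries, 3 per group and 1 per batch, belong to a series of 10 RNA-seq libraries, and the 4 from primary tumours (PT) were not used. The study treated AstroEGFR_1, AstroEGFR_2 and AstroEGFR_3 as independent batches, each with its own Zfp423 culture, so a pair below is one batch with and without the vector, and values for batches 1, 2 and 3 are given in that order. Where 2 sets of 3 FPKM values follow each other, the first is AstroEGFR and the second AstroEGFR Zfp423. Of 23230 features in the expression matrix, 12184 were kept: their mean over the 6 libraries was at least 1 FPKM (fragments counted per transcript, scaled to its length and to the mapped fragments of the library), and their symbols did not start like those of most small RNAs and clustered histone genes; a few of each kind with other symbols stayed in. Each was described by its change in log2(FPKM + 1), Zfp423 library minus AstroEGFR library, within each of the 3 pairs. This scale understates the change of genes near 1 FPKM. The question was which changes the 3 batches shared and which had opposite signs.

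Zfp423 encodes a nuclear protein with many zinc fingers that binds DNA and joins other transcription factors. It is known as a partner of SMAD proteins on genes induced by bone morphogenetic proteins (BMPs), of EBF factors in olfactory and fat precursor cells, and of retinoic acid receptors. BMP signals push neural precursors towards astrocytes and lead to the transcription of Id genes and of the inhibitory SMADs.

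The libraries differed in ways beyond the vector. FPKM summed to between 361102 and 860068 per library, and 6200 to 8417 features stood at 0. Read depth was not given in the sources used here, and Gapdh stood between 0.0204 and 2.52 FPKM in all 6 libraries and Hmgcs1, of sterol synthesis, at 0 in all 6, so a value of 0 does not show that a gene was silent. Small RNA and histone features took 0.315, 29.6 and 4.84% of the FPKM in AstroEGFR and 35.4, 35.9 and 54.8% in AstroEGFR Zfp423. This share was higher with Zfp423 in every pair. AstroEGFR_3_Zfp423 resembled AstroEGFR_2 (Pearson's r = 0.905 over the features kept) more than its own parent (0.798), and AstroEGFR_1_Zfp423 and AstroEGFR_2_Zfp423 resembled each other (0.876) more than their parents (0.831 and 0.773). Both libraries of batch 2 expressed the X-inactivation RNA Xist, at 20.4 and 26.3 FPKM, and the 4 of batches 1 and 3 expressed Y-linked genes, so the batch numbers matched for batch 2 and could not be checked between batches 1 and 3. In batch 3 the matrix genes described below lay high in AstroEGFR_3 and low in AstroEGFR_3_Zfp423, against the other batches, whereas Zfp423 itself, at 3.48 and 105 FPKM, followed the labels. An exchange of these 2 libraries would turn the sign of every change in pair 3, so the first 2 pairs are also counted alone.

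Zfp423 was higher with the vector in every batch. It stood at 4.30, 3.25 and 3.48 FPKM in AstroEGFR and at 15.7, 9.73 and 105 FPKM in AstroEGFR Zfp423. The groups did not overlap, and batch 3 reached a level far above the others. The change was 1.65, 1.33 and 4.57 in the 3 pairs, with a mean of 2.52 ± 0.73 (SE, n = 3 pairs). In limma's moderated test with the batch as a block, its unadjusted p was 0.0225 and its Benjamini-Hochberg adjusted p over the 12184 features was 0.629. Reads of the vector and of the endogenous gene cannot be told apart in these values. Without batch 3 the mean change was 1.49 (adjusted p = 0.184).

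The lesion genes varied between batches. Cdkn2a, which encodes p16 and p19, stood at 6.92, 3.96 and 29.1 FPKM in AstroEGFR and 5.46, 4.10 and 6.29 FPKM with Zfp423; fragments of the locus left by the deletion cannot be told from whole transcripts. Egfr stood at 7.81, 362 and 63.00 FPKM in AstroEGFR and 116, 82.2 and 343 FPKM with Zfp423. It was higher with Zfp423 in batches 1 and 3 and lower in batch 2, by 3.73, -2.13 and 2.43. Fragments of the human EGFRvIII sequence may have been counted with mouse Egfr, and how they were handled was not given in the sources used here.

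**Figure D1:**
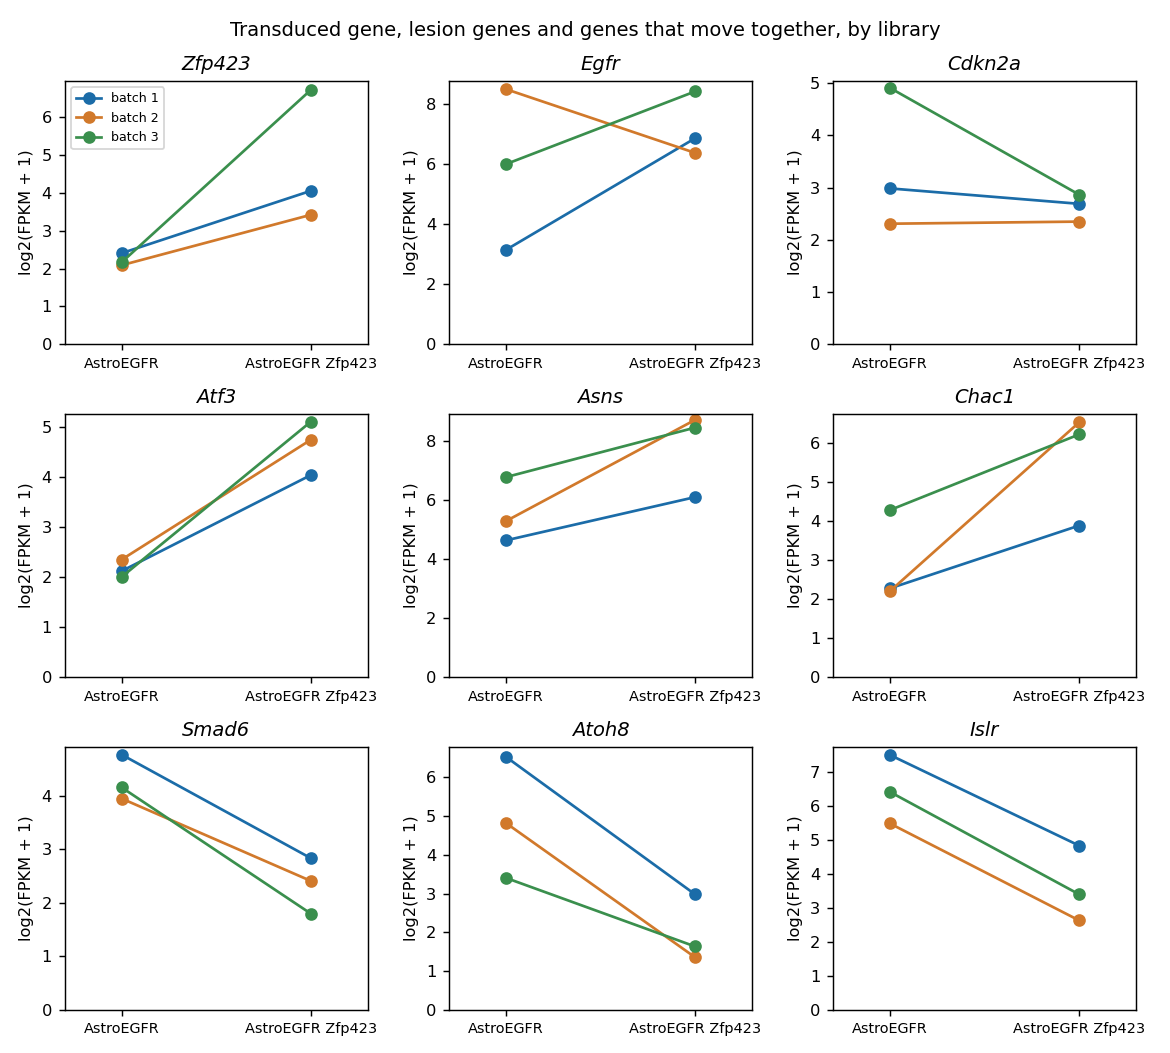
Level of 9 genes in the 6 libraries, in log2(FPKM + 1); each line joins the AstroEGFR and AstroEGFR Zfp423 libraries of one batch. Zfp423, Atf3, Asns and Chac1 were higher and Smad6, Atoh8 and Islr lower with Zfp423 in all 3 batches, and Egfr was lower in batch 2 only.

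No feature passed an adjusted p below 0.05 in limma (0 of 12184 in each direction, 0.0% called; the smallest adjusted p was 0.629). At an unadjusted p below 0.05, 383 features (3.14%) were higher and 536 (4.4%) lower. Results below are therefore descriptions of 3 pairs, which cannot give a two-sided p below 0.25 in an exact sign-flip test. All 3 pairs had the same sign for 1971 features that were higher (16.2%) and 1884 that were lower (15.5%). The change was at least 1 in every pair for 32 features that were higher (0.263%) and 100 that were lower (0.821%). With a pseudocount of 0.1 these counts were 57 and 192, and with small RNA and histone features kept 51 were higher. All 132 features (32 and 100) had an unadjusted p below 0.05, between 9.76e-05 and 0.0409, and an adjusted p of 0.629. They were chosen by their change in these same pairs, which makes their unadjusted p-values small. Hmgn5 lay just inside the limit of 1 (-2.89, -1.01 and -3.33) and Arhgef26 just outside it (-1.29, -3.24 and -0.999).

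The differences were more alike between the first 2 batches than between either and the third. Across the 12184 features, which share their libraries and are not replicates, the changes of pairs 1 and 2 had a Pearson's r of 0.557, those of pairs 1 and 3 of -0.07, and those of pairs 2 and 3 of -0.31. Of 704 features higher by at least 1 in pairs 1 and 2, 32 were higher and 312 (2.56% of all features) lower by at least 1 in pair 3. Of 411 lower by at least 1 in both, 100 were lower and 72 (0.591%) higher by at least 1 in pair 3. In all, 434 features (3.56%) differed by at least 1 in every pair with opposite signs, and the pair that differed was pair 3 for 384 of them, pair 2 for 37 and pair 1 for 13.

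**Figure D2:**
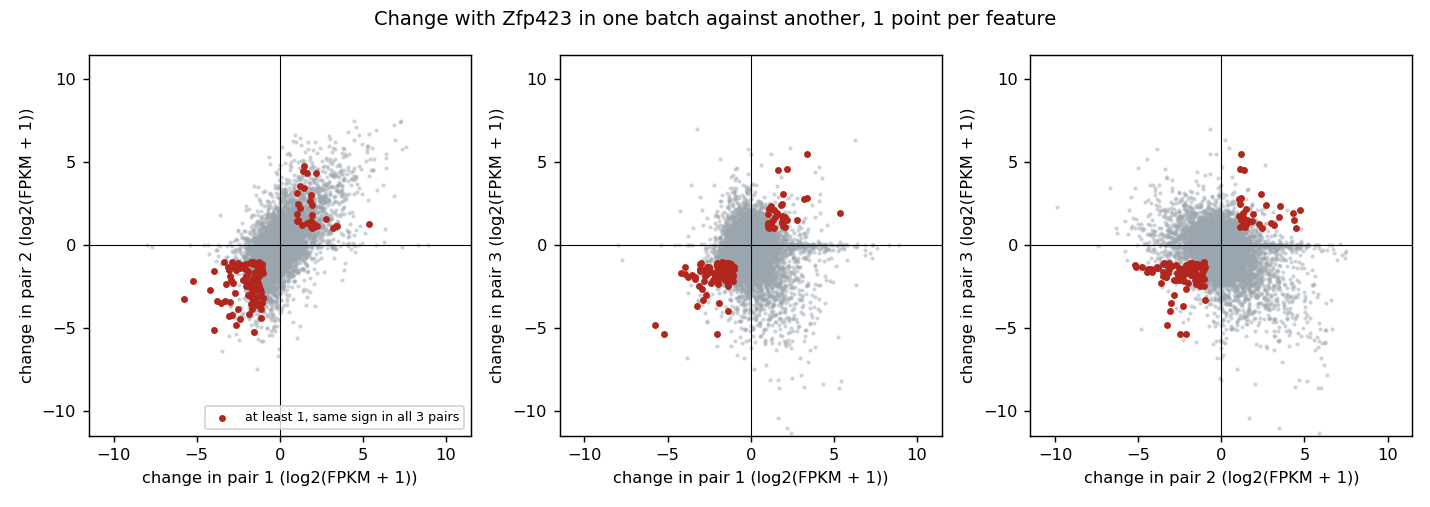
Change in log2(FPKM + 1) with Zfp423 in one pair against another, 1 point per feature for 12184 features; the 132 features with the same sign and at least 1 in all 3 pairs are in red. Points lie along the diagonal for pairs 1 and 2 and spread to the lower right where pair 3 is on the vertical axis.

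Of the 10 genes that led those higher in all 3 batches, Chac1, Trib3 and Asns are members of the list of unfolded protein and ATF4 genes used here. Atf3 and Cth, which are not in that list, are described with them, a grouping made after their values were seen. ATF4 is a transcription factor whose translation is favoured when amino acids run short or the endoplasmic reticulum is stressed, and its targets include enzymes that make or import amino acids. Atf3, a stress-induced factor of the same family, stood at 3.35, 4.09 and 3.004 FPKM in AstroEGFR and 15.5, 25.9 and 33.6 FPKM with Zfp423. The groups did not overlap, and the change was 1.92, 2.40 and 3.11, with a mean of 2.48 ± 0.33 (SE, n = 3 pairs). In limma its unadjusted p was 0.00112 and its adjusted p was 0.629. Of all features that were higher in the 3 pairs, Atf3 had the largest value in its weakest pair. Trib3, a pseudokinase that dampens ATF4 output, stood at 2.18, 1.93 and 24.4 FPKM and 13.6, 58.7 and 72.9 FPKM. Chac1, which degrades glutathione, stood at 3.83, 3.59 and 18.4 FPKM and 13.8, 91.4 and 73.5 FPKM. Both were higher in each pair, but the AstroEGFR_3 library lay above the Zfp423 library of batch 1, so their groups overlapped.

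The genes of amino acid supply had their largest difference in pair 2. Asns, asparagine synthetase, stood at 23.9, 38.1 and 109 FPKM in AstroEGFR and 67.98, 424 and 353 FPKM with Zfp423, a change of 1.47, 3.44 and 1.68. Cth, which makes cysteine from cystathionine, stood at 1.88, 4.85 and 16.8 FPKM and 6.80, 157 and 75.1 FPKM, a change of 1.44, 4.75 and 2.10. Slc7a11, the cystine importer, stood at 1.56, 1.97 and 5.71 FPKM and 3.37, 33.8 and 32.2 FPKM. AstroEGFR_3 held the highest level of the 3 parental libraries for each of these. Atf4 itself stood at 101, 146 and 165 FPKM and 159.6, 570.0 and 396 FPKM, a change of 0.66, 1.96 and 1.26. The 3 mitochondrial enzymes Pck2, Aldh18a1 and Aldh1l2 were also higher by at least 1 in every pair. Pck2, which makes phosphoenolpyruvate, differed by 1.05, 3.17 and 1.19. Aldh18a1, an enzyme of proline synthesis, differed by 1.21, 2.27 and 1.26. Aldh1l2, a folate enzyme, differed by 1.43, 4.47 and 1.06.

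Of the 16 unfolded protein and ATF4 genes in the list used here, all kept by the filter, 7 were higher in all 3 pairs and 1 was lower, against 16.2% and 15.5% of all features. The 7 were Atf4, Ddit3, Asns, Trib3, Chac1, Herpud1 and Slc7a11. The chaperones of the endoplasmic reticulum did not share this pattern: Hspa5 differed by 0.25, 1.29 and -0.38, Pdia4 by -0.043, -0.014 and -0.84 and Sdf2l1 by 0.59, 0.74 and -3.28. The list's median change was 0.58, 1.69 and 0.18, against 0.04, 0.01 and -0.0045 over all features.

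The promoters of several of these genes hold the sequence that ATF4 binds with its C/EBP partners, TGATGNAA on either strand. Promoters were taken from RefSeq on GRCm38.p6, a later build than the mm9 of the expression matrix, as 250 bases before and 50 bases after each annotated start. A promoter was found for 25 of the 32 features higher by at least 1 in all 3 pairs, and 7 of these (28.0%) held the motif. It was present for 0 of 68 of those lower by at least 1, for 2.67% of the 9704 tested features with a promoter and for 4.51% of all 27025 genes. Of the 7 matches, 6 lay before the start, and 60 bases around each are shown with the match in capitals, 5′ to 3′ on the strand of the gene. In Trib3, the last of the 7, the match lay just after the start.
Asns, chr6:7693210-7693269, minus strand: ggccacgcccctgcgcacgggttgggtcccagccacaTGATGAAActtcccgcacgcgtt
Chac1, chr2:119351023-119351082, plus strand: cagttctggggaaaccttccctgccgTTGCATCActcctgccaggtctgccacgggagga
Atf3, chr1:191183410-191183469, minus strand: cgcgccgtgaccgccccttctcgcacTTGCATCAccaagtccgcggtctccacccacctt
Pck2, chr14:55540137-55540196, plus strand: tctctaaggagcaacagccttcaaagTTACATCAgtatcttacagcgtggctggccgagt
Tars, chr15:11399659-11399718, minus strand: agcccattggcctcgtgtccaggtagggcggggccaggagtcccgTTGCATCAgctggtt
Vldlr, chr19:27216794-27216853, plus strand: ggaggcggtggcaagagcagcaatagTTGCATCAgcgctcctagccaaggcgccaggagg
Asns holds the motif as written and the other 5 hold its reverse complement. A match of letters is not evidence of binding. The core of the site known for ZFP423, GCACCC on either strand, was found in 8 of the 25 promoters of features that were higher (32.0%) and 15 of the 68 of those that were lower (22.1%), against 22.0% of tested features. A match to one motif is not a match to the other.

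Cytosolic aminoacyl-tRNA synthetases, which charge tRNAs with amino acids, were higher as a group; this group was formed after the values were seen. Of 18 genes, 17 were higher in all 3 pairs and 0 lower, against 16.2% and 15.5% of all features, with medians of 0.706, 1.502 and 1.057. Tars, the threonyl enzyme, stood at 28.3, 59.95 and 80.6 FPKM in AstroEGFR and 60.8, 334 and 167 FPKM with Zfp423. Lars, the leucyl enzyme, stood at 24.99, 51.8 and 48.9 FPKM and 52.2, 195 and 183 FPKM, with no overlap between groups. Eprs, the glutamyl and prolyl enzyme, stood at 42.98, 83.7 and 82.9 FPKM and 91.3, 244 and 214 FPKM and did not overlap either. The exception was Wars, the tryptophanyl enzyme, which is also induced by interferon, with changes of -0.18, 0.64 and 2.68.

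The remaining genes among the 10 that led the shared higher changes were of other kinds. Vldlr, a lipoprotein and reelin receptor, stood at 2.03, 3.22 and 8.81 FPKM in AstroEGFR and 9.64, 26.1 and 52.2 FPKM with Zfp423, without overlap and with a mean change of 2.31 ± 0.29 (SE, n = 3 pairs). Fmnl1, a formin of blood cells, differed by 1.91, 3.01 and 1.37, and Acta1, skeletal muscle actin, by 1.88, 1.43 and 1.41 at levels under 10 FPKM in every library. The ribosomal protein gene Rpl34 stood at 6.37, 34.1 and 26.8 FPKM and 49.7, 103 and 79.2 FPKM, and the noncoding transcript 2410006H16Rik stood at 70.3, 105 and 164 FPKM and 269.7, 379 and 458 FPKM. The groups did not overlap for these last 2 genes. Of 82 ribosomal protein genes, a group also formed after the values were seen, 42 were higher in all 3 pairs, 0 were lower and 33 were higher in pairs 1 and 2 and lower in pair 3, against 16.2, 15.5 and 17.5% of all features. Of 11 snoRNA host genes, likewise grouped after the values were seen, 7 were higher in all 3, against 16.2%, among them Snhg6 (1.91, 1.03 and 1.73). These transcripts host small RNAs or have many near-identical copies in the genome, and the share of FPKM in small RNA and histone features moved in the same direction in each pair, from 0.315, 29.6 and 4.84% to 35.4, 35.9 and 54.8%; its part in the result was not tested.

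The 10 genes that led those lower in all 3 batches were of several kinds. Gpx3, the secreted glutathione peroxidase, stood at 84.5, 10.00 and 37.04 FPKM in AstroEGFR and 0.590, 0.152 and 0.368 FPKM with Zfp423, a mean change of -4.60 ± 0.56 (SE, n = 3 pairs). Islr, a secreted protein of mesenchymal cells, stood at 181, 43.8 and 84.5 FPKM and 27.5, 5.19 and 9.54 FPKM, and differed by -2.67, -2.86 and -3.02. Prelp, a small matrix proteoglycan, stood at 481, 52.4 and 129 FPKM and 50.6, 9.58 and 9.32 FPKM. In all 3 genes the highest Zfp423 library lay below the lowest parental library, by a narrow margin in Prelp, and Islr had the smallest unadjusted p of all features (9.76e-05; adjusted p = 0.629).

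Baalc, a protein of neural and blood progenitors, differed by -2.81, -2.28 and -2.15. Kcnj10, the astrocytic potassium channel Kir4.1, stood at 71.03, 3.42 and 8.94 FPKM in AstroEGFR and 8.37, 0.0250 and 0.571 FPKM with Zfp423. Six3, a homeobox factor of the forebrain, stood at 51.3, 11.4 and 29.2 FPKM and 2.82, 0.202 and 6.84 FPKM. The ecto-ATPase gene Entpd2, Ildr2 and Gm15698 (now Elobl) completed the group, with changes of -2.03, -2.47 and -5.38 for Entpd2, -1.93, -3.03 and -3.50 for Ildr2 and -5.21, -2.13 and -5.34 for Gm15698. Shh, the Sonic hedgehog ligand, stood at 113, 13.5 and 4.62 FPKM and 10.4, 0.404 and 0.478 FPKM and was highest in batch 1 in both groups. Groups did not overlap for 8 of these 10 genes, Kcnj10 and Shh being the exceptions, and for 71 of all 100 features lower by at least 1, against 5.96% of all features; among the 32 higher they did not overlap for 20, against 5.43%. The choice of members by their change in these same libraries makes such shares high.

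**Figure D3:**
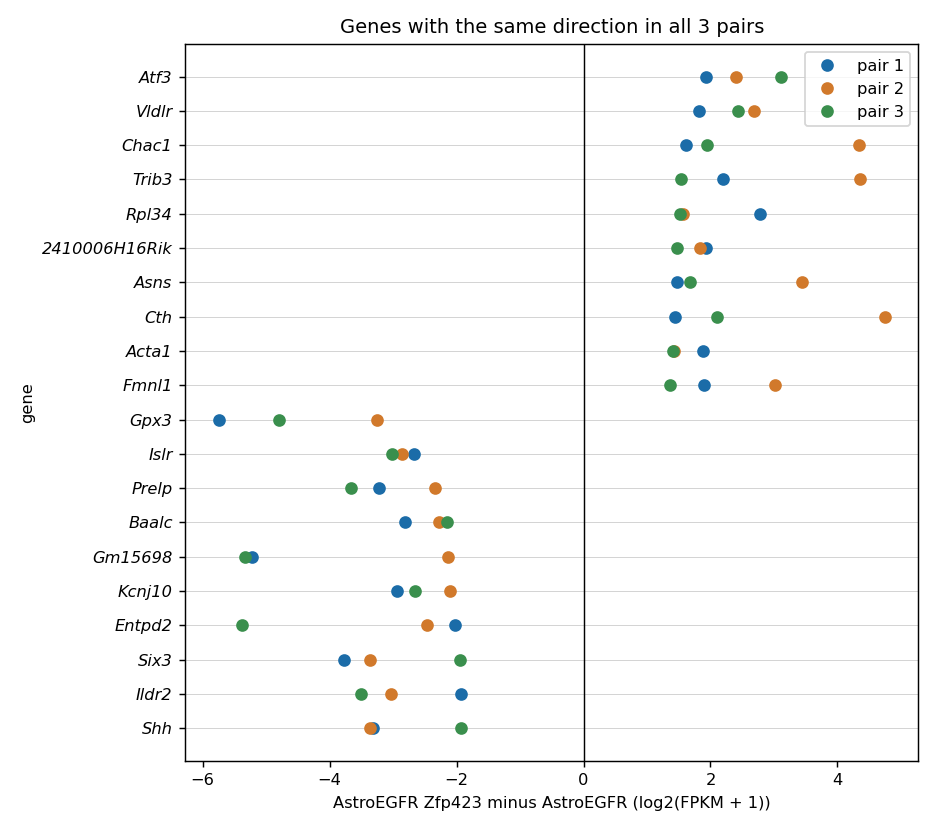
Change in log2(FPKM + 1), AstroEGFR Zfp423 minus AstroEGFR, in each of the 3 pairs for the 10 genes higher and the 10 lower with the largest value in their weakest pair. Islr has nearly the same change in each pair (-2.67, -2.86 and -3.02), whereas Chac1, Trib3, Asns and Cth have their largest change in pair 2.

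BMP target genes were among those lower. Smad6, the inhibitory SMAD that BMP signals induce, stood at 26.3, 14.4 and 16.8 FPKM in AstroEGFR and 6.12, 4.31 and 2.47 FPKM with Zfp423. The groups did not overlap, and the change was -1.94, -1.54 and -2.36, with a mean of -1.95 ± 0.28 (SE, n = 3 pairs). In limma its unadjusted p was 0.00166 and its adjusted p was 0.629. Id3, an inhibitor of basic helix-loop-helix factors, stood at 714, 491 and 309 FPKM and 251, 228 and 137 FPKM. Atoh8, a basic helix-loop-helix factor also induced by BMPs, stood at 91.7, 27.4 and 9.61 FPKM and 6.89, 1.56 and 2.11 FPKM. Both were lower by at least 1 in every pair, and neither overlapped between groups. Id1 was lower in the first 2 batches and nearly level in the third, with changes of -2.72, -2.89 and -0.14, and Id2 differed by -1.70, -0.96 and 0.14. Id4 differed by -2.46, -4.42 and -0.996, and lay just outside the limit of 1 in pair 3.

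Of the 21 SMAD and BMP target genes listed, all kept, 9 were lower in all 3 pairs (Smad6, Smad7, Smad9, Id1, Id3, Id4, Bambi, Atoh8 and Msx2) and 2 were higher (Smad2 and Smad4), against 15.5% and 16.2% of all features. The median change was -1.23, -0.59 and -0.26. Of the receptor-activated SMADs that carry the BMP signal, Smad1 differed by -0.047, 0.32 and -0.26, Smad5 by -0.52, -0.59 and 0.66 and Smad9 by -1.98, -0.46 and -0.78. Among 18 kept genes for BMP ligands, receptors and antagonists, 2 were higher in all 3 pairs and 1 was lower. Grem1, a secreted BMP antagonist, was one of the former, at 4.23, 2.37 and 0.318 FPKM in AstroEGFR and 6.95, 19.4 and 35.97 FPKM with Zfp423. Its change of 0.61, 2.59 and 4.81 was largest in batch 3. The other was the activin receptor Acvr2a (0.72, 1.23 and 0.043), and the gene that was lower was Twsg1, a BMP-binding protein (-0.57, -0.49 and -0.63). Bmp4 differed by 0.30, -0.43 and -2.36 and the main BMP receptor Bmpr1a by -0.44, -0.25 and 0.16.

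Of 10 kept genes for Zfp423's family and partners, 2 were higher in all 3 pairs and 0 were lower, against 16.2% and 15.5% of all features. The 2 were Zfp423, the gene of the vector itself, and Ebf4. Zfp521, a close relative, differed by 0.13, -2.52 and -0.83. Ebf1 stood at 0.842, 4.44 and 11.99 FPKM in AstroEGFR and 8.59, 4.15 and 1.19 FPKM with Zfp423, higher in batch 1, level in batch 2 and lower in batch 3. Ebf2 followed with changes of 1.93, 0.21 and -2.56. The fat cell list gave 0 of 9 kept genes higher in all 3 pairs and 2 lower, against the same shares.

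Apart from S100b in batch 1, the kept astrocyte markers were lower in batches 1 and 2, and they were divided in batch 3. Gfap, the intermediate filament of astrocytes, stood at 47.3, 109 and 725 FPKM in AstroEGFR and 7.94, 1.11 and 393 FPKM with Zfp423. Aqp4, their water channel, stood at 75.5, 15.8 and 31.3 FPKM and 11.2, 0.0266 and 15.5 FPKM. Sparcl1, a secreted protein of astrocytes, stood at 54.9, 33.7 and 46.6 FPKM and 2.67, 0 and 17.8 FPKM. AstroEGFR_2_Zfp423 was at or below 1.11 FPKM for all 3, although the labels call it an astrocyte culture. Of 15 kept markers, 8 were lower in all 3 pairs, 0 were higher and 6 were lower in pairs 1 and 2 and higher in pair 3, against 15.5, 16.2 and 15.2% of all features, with medians of -1.48, -3.19 and -0.15. Summed over the 16 markers found, the level was 1684, 1949 and 1602 FPKM in AstroEGFR and 825, 83.5 and 2997 FPKM with Zfp423, so the sum was higher in batch 3, where Fabp7, the fatty acid binding protein of radial glia, was higher than in its parent (778, 1261 and 393 FPKM in AstroEGFR, 469, 0.316 and 1906 FPKM with Zfp423). Gjb6 stood at 0 in all 6 libraries. Fewer cells of a type and less RNA per cell cannot be told apart in such bulk samples.

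Genes of DNA replication and mitosis were lower in batches 2 and 3 and close to level in batch 1. Of 30 genes, 15 were lower in all 3 pairs and 0 higher, against 15.5% of all features lower, and the medians were -0.02, -0.68 and -0.96. Plk1, a kinase of mitotic entry, stood at 31.4, 53.5 and 34.4 FPKM in AstroEGFR and 14.1, 22.7 and 9.36 FPKM with Zfp423, without overlap. E2f1, a factor of S-phase entry, stood at 20.4, 11.3 and 23.2 FPKM and 6.28, 6.64 and 4.83 FPKM, and Rrm2, which makes deoxynucleotides, differed by -0.71, -1.71 and -1.15. Mki67, the proliferation marker, differed by -0.26, -1.13 and -0.36.

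Counts in the smaller lists are to be read against 16.2% of all features higher and 15.5% lower in all 3 pairs. In the Hedgehog list, 4 of 12 kept genes were lower in all 3 pairs, Shh, Gli3 (-0.75, -0.99 and -0.70), Gas1 and Boc, and 0 were higher. Ptch1, the receptor that Hedgehog signals induce, had changes of 0.55, -2.14 and -1.26. Retinoic acid synthesis was represented by Rdh10, which makes retinaldehyde, at 54.3, 37.4 and 43.96 FPKM in AstroEGFR and 25.9, 10.8 and 15.5 FPKM with Zfp423, and by Aldh1a1, which oxidises it, at 17.00, 58.04 and 79.8 FPKM and 7.21, 3.06 and 29.5 FPKM. Both were lower by at least 1 in each pair, and Rdh10 did not overlap. In that list 3 of 12 kept genes were lower in all 3 pairs and 0 higher, and the medians had no common sign (-0.17, 0.56 and -1.55). In the hypoxia and glycolysis list, 5 of 16 were higher in all 3 and 0 lower; Vegfa, the vascular growth factor, stood at 19.99, 22.98 and 27.1 FPKM and 30.4, 78.4 and 126 FPKM, and Pdk1, which limits pyruvate oxidation, differed by 0.67, 1.65 and 0.92. Subunits of PRC2, the Polycomb complex that methylates histone H3, had medians of -0.12, -0.21 and -0.10, with 2 of 11 higher and 3 lower in all pairs.

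**Figure D4:**
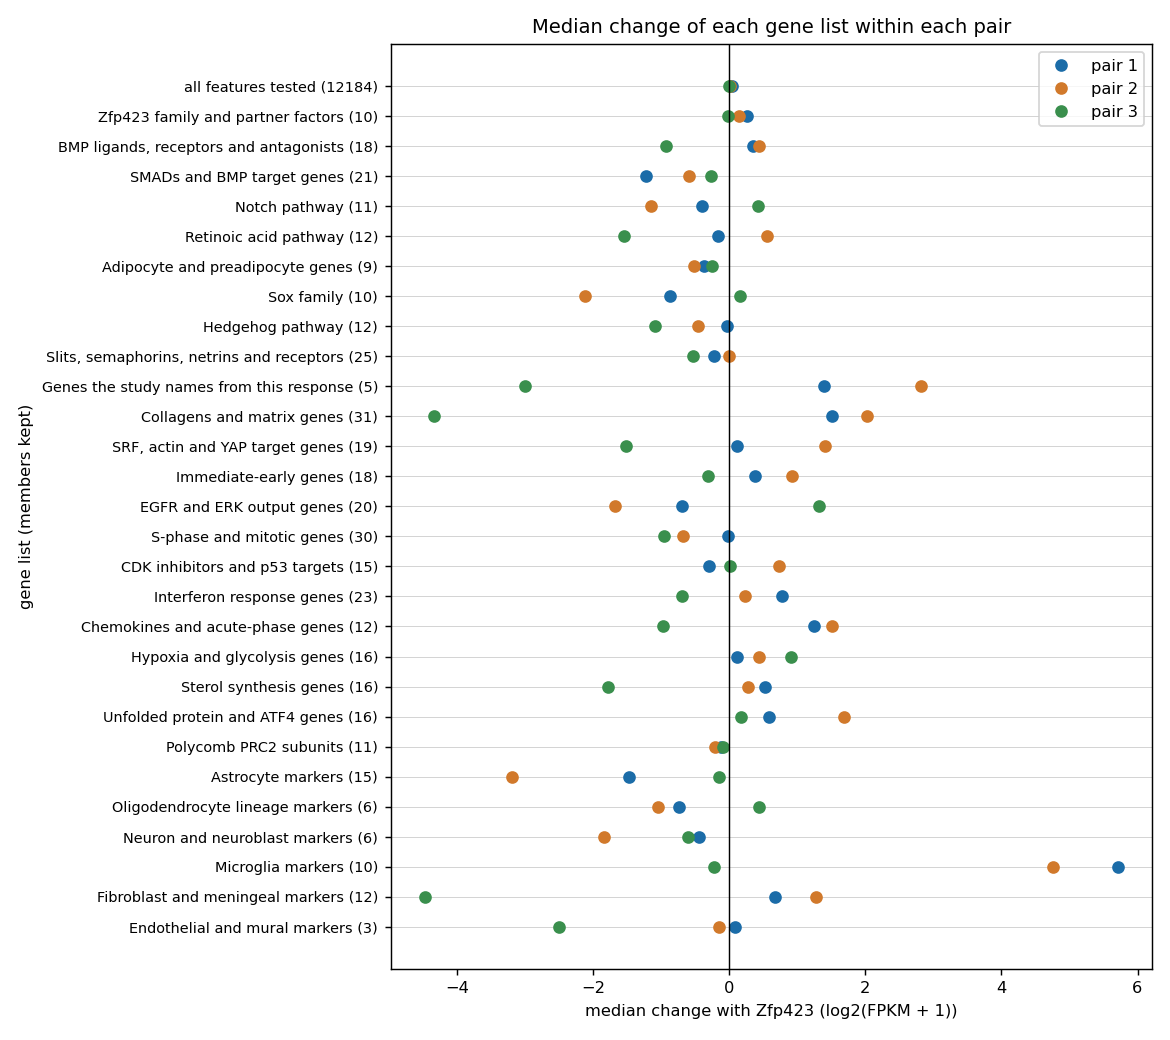
Median change in log2(FPKM + 1) with Zfp423 within each pair, for all 12184 features and for 28 gene lists, with the number of members kept in parentheses. The matrix, fibroblast, sterol and EGFR and ERK lists have pair 3 on the other side of 0 from pairs 1 and 2, and the microglia medians are 5.71, 4.76 and -0.23.

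Genes of the extracellular matrix were among those that differed most between batches. Col3a1, a fibrillar collagen, stood at 39.4, 43.01 and 1117 FPKM in AstroEGFR and 1760.1, 1590.3 and 2.74 FPKM with Zfp423. Postn, a matricellular protein, stood at 6.39, 10.7 and 406 FPKM and 289, 741 and 0.0396 FPKM. Lox, which crosslinks collagen, stood at 49.97, 9.13 and 564 FPKM and 168, 575 and 0.467 FPKM. For each of the 3 genes AstroEGFR_3 lay among or close to the Zfp423 libraries of batches 1 and 2, and AstroEGFR_3_Zfp423 lay below every other library. The changes were 5.45, 5.18 and -8.22 for Col3a1, 5.29, 5.99 and -8.61 for Postn and 1.73, 5.83 and -8.59 for Lox. The other genes with the largest opposite changes in pair 3 were Aspn, a small matrix proteoglycan (5.25, 5.78 and -5.54), Igfbp4, an IGF binding protein (3.98, 5.36 and -4.42), and Grb10, an imprinted adaptor of insulin signalling (3.87, 5.83 and -6.17). Of 31 matrix genes, 20 were higher in pairs 1 and 2 and lower in pair 3, against 17.5% of all features, and 28 were lower by at least 1 in pair 3, against 16.6%. The list's medians were 1.52, 2.03 and -4.34.

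Many markers of fibroblasts and meningeal cells, though not all, were divided between batches like the matrix genes. Summed over the 12 markers found, some of which are themselves collagens, the level was 648, 643 and 5507 FPKM in AstroEGFR and 4631, 6376 and 283 FPKM with Zfp423. In this sum AstroEGFR_3 lay near the Zfp423 libraries of the first 2 batches and AstroEGFR_3_Zfp423 below all others. The medians were 0.67, 1.28 and -4.47, and 7 of 12 were higher in pairs 1 and 2 and lower in pair 3, against 17.5% of all features. Another 3 of the 12, among them Islr, were lower in all 3 pairs, against 15.5%. Dcn, decorin, stood at 8.03, 0.692 and 338 FPKM and 185, 5.90 and 0 FPKM. The part of such cells in the matrix result was not tested. Also, H19 and Igf2, imprinted neighbours of fetal growth, stood at 294 and 268 FPKM in AstroEGFR_3 and at 0.0560 and 0.0388 FPKM in AstroEGFR_3_Zfp423, and were at or below 16.1 FPKM in the other 4 libraries; they were named after their values were seen.

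Outputs of receptor tyrosine kinase signalling ran the other way. The sprouty, DUSP and ETV genes are induced by ERK and several of them restrain it. Spry4 stood at 11.98, 30.4 and 2.42 FPKM in AstroEGFR and 5.30, 2.92 and 36.3 FPKM with Zfp423. Dusp6, an ERK phosphatase, stood at 112, 212 and 27.2 FPKM and 130.4, 47.5 and 230.4 FPKM. Etv5, an ETS factor, stood at 84.2, 102 and 29.6 FPKM and 45.97, 26.2 and 124 FPKM. Each was higher in batch 3 and lower in batch 2, and Spry4 and Etv5 were also lower in batch 1. Of 20 genes in the list, 10 were lower in pairs 1 and 2 and higher in pair 3, against 15.2% of all features, and the medians were -0.69, -1.68 and 1.32. Egfr, which is in this list, differed in the same direction as the medians in pairs 2 and 3 and against it in pair 1.

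Sox genes of neural precursors showed a like division. Sox2, which maintains neural stem cells, stood at 266, 114 and 74.4 FPKM in AstroEGFR and 80.7, 3.15 and 141 FPKM with Zfp423. Sox9, a factor of glial precursors, was lower in all 3, at 56.95, 16.2 and 37.00 FPKM and 12.6, 5.08 and 21.8 FPKM. Of 10 kept Sox genes, 5 were lower in pairs 1 and 2 and higher in pair 3, against 15.2% of all features. The oligodendrocyte factor Olig2 stood at 41.1, 42.9 and 7.75 FPKM and 4.10, 0 and 64.03 FPKM. In the Notch list 4 of 11 kept genes were lower in pairs 1 and 2 and higher in pair 3, 2 were lower in all pairs and 2 higher, against 15.2, 15.5 and 16.2% of all features. The study singled out Slit2, Pappa, Nfatc4 and Lox from this response, and Sox2 as lower in batch 2 only. Since that choice was made on these samples, the direction of these genes is no independent evidence. The first 4 were higher in pairs 1 and 2 and lower in pair 3, and Sox2 was the reverse. Slit2, a repellent guidance cue, stood at 16.8, 5.52 and 37.7 FPKM and 23.9, 44.8 and 1.06 FPKM, and Nfatc4 differed by 2.08, 3.95 and -2.997. Of 25 kept guidance genes, the slits, semaphorins, netrins and their receptors, 6 followed Slit2 and 9 the reverse, against 17.5 and 15.2% of all features. In all pairs 2 were higher and 3 lower, against 16.2 and 15.5%.

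Sterol synthesis was lower in batch 3. Of 16 kept genes, 15 were lower by at least 1 in pair 3, against 16.6% of all features, and the medians were 0.52, 0.28 and -1.79. Fdft1, squalene synthase, stood at 15.3, 28.2 and 102 FPKM in AstroEGFR and 26.3, 41.3 and 24.8 FPKM with Zfp423. Cyp51, the lanosterol demethylase, stood at 25.00, 48.8 and 92.8 FPKM and 36.97, 76.6 and 22.3 FPKM. AstroEGFR_3 held the highest level of the 6 libraries for both genes, and AstroEGFR_3_Zfp423 the lowest for Cyp51. Targets of SRF and YAP, factors that respond to actin and cell tension, had medians of 0.11, 1.41 and -1.52, and 10 of 19 were higher in pairs 1 and 2 and lower in pair 3, against 17.5% of all features.

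**Figure D5:**
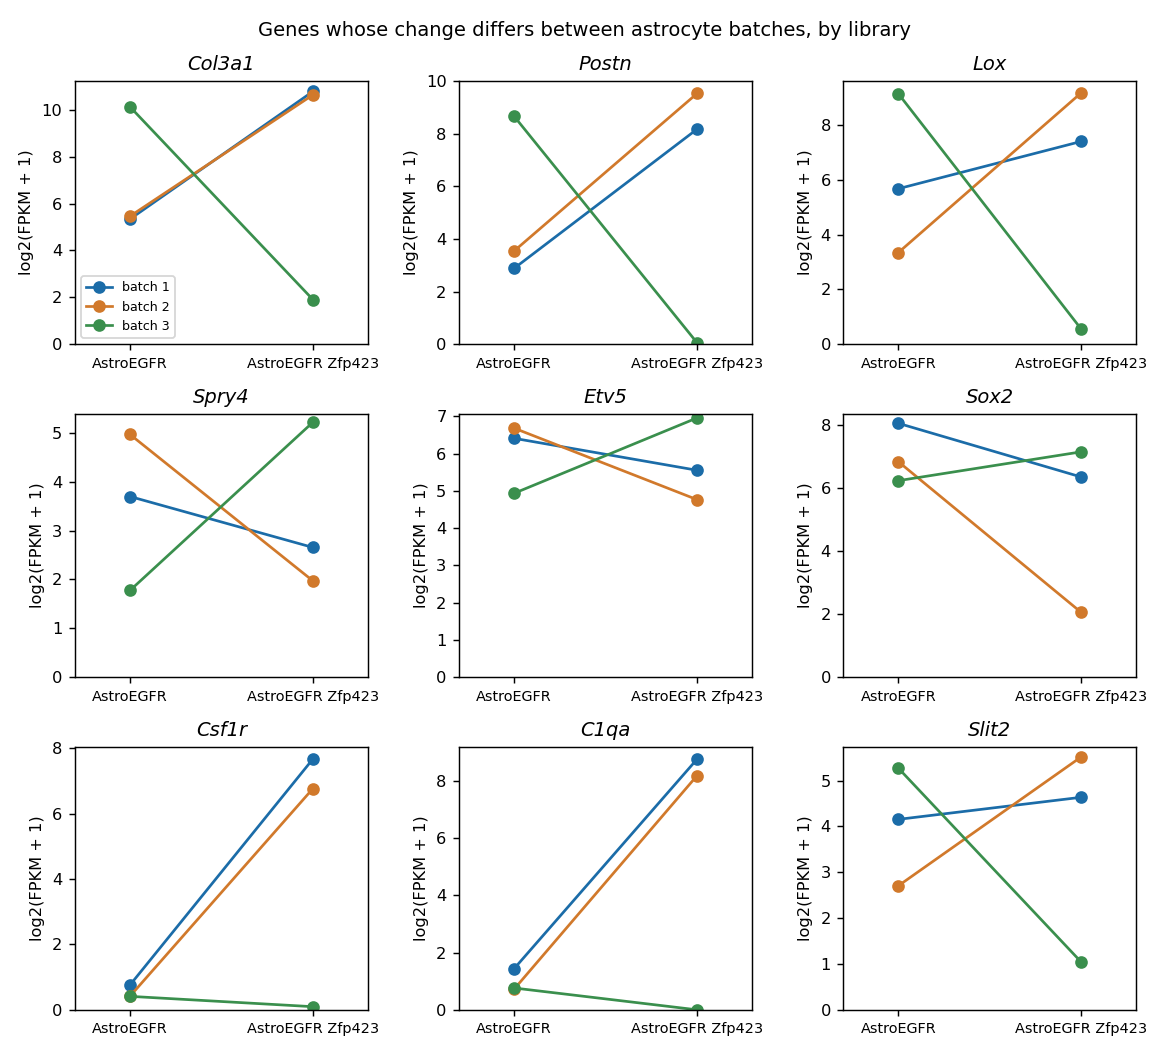
Level in log2(FPKM + 1) of 9 genes in the 6 libraries; each line joins the AstroEGFR and AstroEGFR Zfp423 libraries of one batch. Col3a1, Postn, Lox and Slit2 were higher in batches 1 and 2 and lower in batch 3, Spry4, Etv5 and Sox2 were the reverse, and Csf1r and C1qa were high only in the Zfp423 libraries of batches 1 and 2.

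Genes of microglia, the macrophages of the brain, were present in 2 libraries. Csf1r, their growth factor receptor, stood at 0.691, 0.333 and 0.330 FPKM in AstroEGFR and 202, 108 and 0.0686 FPKM with Zfp423. C1qa, a complement chain, stood at 1.71, 0.651 and 0.697 FPKM and 433, 290.5 and 0 FPKM. Cx3cr1, the fractalkine receptor, stood at 0.3998, 0.171 and 0.0430 FPKM and 105, 13.7 and 0.00549 FPKM. All 10 markers were higher by at least 1 in pairs 1 and 2, and 0 of 10 were in pair 3, against 10.3, 12.3 and 8.77% of all features in the 3 pairs. Their sum was 13.8, 3.56 and 3.76 FPKM in AstroEGFR and 1627, 932 and 1.20 FPKM with Zfp423, and 6 of the 10 stood at 0 in AstroEGFR_3_Zfp423. With batch 3 left out, the 3 C1q chains were the only features with an adjusted p below 0.05 in limma (0.0342 for each). That fit leaves out the pair in which all 3 chains were lower (median change -0.62). C1qa passed the filter only through the 2 libraries where it was high, so the call is no independent evidence. The chemokine and acute-phase list, medians 1.25, 1.51 and -0.97, and the interferon list, 0.78, 0.23 and -0.69, had medians divided the same way; Ccl2, a monocyte chemokine, differed by 2.60, 4.69 and -1.01. The part of microglia in these results, and in the shared higher changes of the blood cell genes Fmnl1 and Fcgr4 (2.06, 1.29 and 1.70), was not tested.

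Pair 2 went against both other pairs for 37 features by at least 1 in every pair. After Egfr, those named by the rule were Cnn1, smooth muscle calponin (-2.01, 2.35 and -6.06), Sema7a, a membrane semaphorin (-2.03, 2.12 and -2.63), Crabp1, a retinoic acid binding protein (-3.57, 1.82 and -2.41), and Runx3, a runt factor (-1.74, 1.71 and -1.82). The glial membrane protein Gpm6b was lower in this pair and differed by under 0.5 in the others, at 739.8, 681 and 397 FPKM in AstroEGFR and 563, 19.3 and 397 FPKM with Zfp423. BC064078, Klhl13, Lmcd1 and the adhesion gene Cntnap2 had the same pattern, with changes between -3.54 and -4.87 in pair 2. Cd300e and Itgax, genes of myeloid cells, were detected above 1 FPKM only in AstroEGFR_2_Zfp423, at 9.52 and 8.60 FPKM, beside the proliferin genes Prl2c1 and Prl2c5, which are near-identical copies, and Cass4.

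Pair 1 went against the others for 13 features by at least 1 in every pair, and the 5 named by the rule were Ptn, the growth factor pleiotrophin (2.04, -2.32 and -4.61), Aldh1a3, a retinaldehyde dehydrogenase (1.84, -1.996 and -4.48), Crispld2 (2.66, -1.62 and -2.50), S100b (1.45, -1.47 and -2.36) and Gas7 (2.26, -1.66 and -1.44). The 5 genes S100a9, Ngp, Retnlg, Camp and Ltf, of neutrophil granules and of the cells that carry them, were lower in this pair and differed by under 0.5 in the others. S100a9 stood at 253, 0 and 0 FPKM in AstroEGFR and 0, 0 and 0 FPKM with Zfp423, so AstroEGFR_1 was the only library of the 6 with a value for it. On the other side, the apolipoprotein gene Apoc2 stood at 164, 0 and 0 FPKM in the Zfp423 libraries, and Lifr, a cytokine receptor, at 36.1, 1.93 and 0.478 FPKM. The noncoding features AF357355, AF357425 and Mirlet7b, small RNAs whose names the symbol rule did not remove, had values in AstroEGFR_1_Zfp423 alone.

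Other genes differed mainly in pair 3, by under 0.5 in pairs 1 and 2. Nrcam, a neuronal adhesion gene, stood at 0.451, 0.471 and 2.16 FPKM in AstroEGFR and 0.194, 0.378 and 36.4 FPKM with Zfp423, and Ptchd1, Kcnh2 and Smpdl3b were also higher in pair 3. Mfap4, a microfibril protein, stood at 5.96, 1.33 and 118 FPKM and 4.30, 1.25 and 0.0730 FPKM. Zic1, a zinc finger factor that also marks meninges, stood at 2.36, 8.75 and 32.02 FPKM and 2.64, 10.7 and 0 FPKM. Smoc1 and Gm12191 were also lower in pair 3. For Mfap4, Zic1, Smoc1 and Gm12191 the parental library of batch 3 was the highest of the 6.

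The remaining lists were small or had few members of one direction. Their counts of members higher or lower in all 3 pairs are to be read against 16.2% and 15.5% of all features. Of 18 immediate-early genes, 3 were higher in all 3 pairs and 0 lower, with medians of 0.37, 0.92 and -0.31. Of 15 kept CDK inhibitors and p53 targets, 1 was higher and 2 lower, with medians of -0.30, 0.72 and 0.01. Of 6 kept oligodendrocyte markers, 0 had the same sign in all pairs and 3 were lower in pairs 1 and 2 and higher in pair 3, against 15.2% of all features, with medians of -0.74, -1.05 and 0.43. Of 6 kept neuronal markers, 2 were lower in all pairs and 3 were lower in pairs 1 and 2 and higher in pair 3, with medians of -0.45, -1.84 and -0.61. Of 3 kept endothelial and mural markers, 1 was higher in all pairs, and the 10 markers found summed to at most 18.9 FPKM in any library.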

How the data were processed

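RNA-seq libraries of 3 AstroEGFR cultures and their 3 Zfp423 partners were used. The authors deposited 1 matrix of FPKM, 1 column per library, made with TopHat 1.3 and Cuffnorm on mm9 according to the submitters' processing notes; annotation, filters and depth are not given in the sources used here, and low FPKM showed no common step that would give it. The labels name a lentiviral Zfp423 vector and a TruSeq RNA kit, whereas the methods of the study name a retroviral vector and ribosomal RNA depletion with a stranded kit. 0 columns were left unmapped.

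Features averaging 1 FPKM or more in these 6 libraries were kept, without 788 small RNA and histone features (symbols starting Snor, Scarna, Rnu, Rny, Mir and a digit or Hist1h to Hist4h, and Rpph1, Rmrp and Terc); 10258 other features were under the minimum. Values were analysed as log2(FPKM + 1) in limma 3.58.1 (R 4.3.3) with the batch as a block, empirical Bayes with a trend and Benjamini-Hochberg adjustment over 12184 features; tables were made in Python 3.11.15 with pandas 2.3.3. The pairing comes from the study's batches: deviations from the group means correlated at 0.272, -0.156 and -0.305 between libraries of the same number, so these correlations do not show it for batches 2 and 3; Xist and Y-linked genes matched within batch 2 and set it apart from batches 1 and 3. Whether batches 1 and 3 came from separate animals is not given in the sources used here, and p-values measure the spread between these cultures. The 28 gene lists (485 entries) and the members were chosen with earlier results of these data known. Of the entries, 2 were matched by an older symbol.

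Genes were named by rule: Zfp423, Egfr and Cdkn2a; the 10 higher and 10 lower with the largest value in their weakest pair among those of 1 sign in all pairs; called features (there were 0); the 5 chosen likewise for each pair against the others; the 5 higher and 5 lower in 1 pair while the others differed by under 0.5; and list members. Other genes were chosen after their values were seen. A few genes that the rule names are not reported here. The scripts were tested on simulated data with 200 known changes. At the spread of these pairs 0 of the 200 were called, and 0 of the 66 changes of size 4. At 0.1 of that spread 189 of the 200 were called, with 13 unchanged features. A count of 0 called features therefore does not show that no gene differed. Alternatives were another pseudocount (0.1), other minimums, median-ratio scaling, small RNA features kept, no block, no trend, array weights and leaving out each batch.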

Additional observations from a re-analysis of the deposited data

Results flagged for a closer look

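The following values mark opposite directions between batches, each pair being 1 batch; with 1 pair per batch the differences were not tested. In pair 1, Ptn (2.04), Aldh1a3 (1.84), Crispld2 (2.66), S100b (1.45) and Gas7 (2.26) were higher with Zfp423 on the log2(FPKM + 1) scale, and lower in both other pairs. In pair 2, Egfr was lower (-2.13) and Sema7a (2.12), Cnn1 (2.35), Crabp1 (1.82) and Runx3 (1.71) were higher, against the other pairs. In pair 3, Postn (-8.61), Aspn (-5.54), Col3a1 (-8.22), Igfbp4 (-4.42) and Grb10 (-6.17) were lower and in both other pairs higher. For the 5 genes of pair 3, AstroEGFR_3 lay above both other AstroEGFR libraries.

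Features left out of the comparisons also differed. Small RNA and histone features took at least 35.4% of the FPKM in the Zfp423 libraries and at most 29.6% in the AstroEGFR libraries.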

How the results depend on the processing

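No feature had an adjusted p below 0.05 under any alternative except without batch 3, where 3 did (range over the 3 fits that leave out a batch, 0 to 3). Without the replicate block the mean change of Zfp423 was the same, 2.52, with an adjusted p of 0.733, and 0 features were called; array weights, which gave batch 1 the largest weight, lowered its adjusted p to 0.0648 and the mean change to 1.81. Over all alternatives its mean change lay between 1.49 and 3.11. The number of features higher by at least 1 in every pair was 57 with a pseudocount of 0.1, 51 with small RNA and histone features kept, and 99 to 704 when a batch was left out. The number lower was 192 with a pseudocount of 0.1 and 228 to 411 when a batch was left out. The number with opposite signs was 718 with a pseudocount of 0.1 and 78 to 942 when a batch was left out. Counts over 2 pairs differ from counts over 3 by construction; leaving out batch 3 gave the 78 and the 704, batch 1 the 942. Of the 218 values for the 20 genes of 1 sign in all pairs, 0 reversed and 0 passed the threshold (adjusted p between 0.0579 and 1.0). Of 276 single-pair changes, 12 moved by more than the spread between pairs, all with the smaller pseudocount, and of 140 list medians 8 did. Scaling moved the median of all features by at most 0.03. With 3 pairs and no read counts, differences of low genes could not be given a counting error.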
